A study of Homo sapiens with 12 samples.

Results

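Cytochrome P450 enzymes are haem proteins, most of them anchored in the endoplasmic reticulum and some in the inner mitochondrial membrane, that insert an oxygen atom into their substrates with electrons from a redox partner. The family oxidises drugs and other foreign compounds, fatty acids and eicosanoids, sterols and bile acid precursors, steroid hormones, vitamin D and retinoids. The liver carries the broadest set of its members, and HepG2, a human hepatocellular carcinoma cell line, is known for low levels of many of the drug-metabolising ones.

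The members described here are all genes whose platform symbol has the form of a P450 name (CYP, a family number, subfamily letters and a gene number) on probe sets with exactly 1 symbol, each represented by its brightest probe set over the 12 arrays. They number 48 of 18404 genes. All but 1 are enzyme genes, and CYP2D7 is generally regarded as a pseudogene beside CYP2D6. The arrays measured HepG2 tumour spheroids aged 10 days in 3 groups of 4: HIF-2α knockdown, HIF-1α knockdown and wild type. The series' design text speaks of 4 different spheroid experiments, without tying arrays of different groups to each other. The sample descriptions mark the knockdown samples "sh2alpha" and "sh1alpha", and the labels give neither a control construct for the wild type cells nor whether a knockdown line is 1 clone. The labels' protocols name an RNA amplification kit and 250 microdissected cells as its input.

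EPAS1, which encodes HIF-2α, averaged 9.89 in HIF-2α knockdown and 11.01 in wild type on the log2 scale, and HIF1A, which encodes HIF-1α, 9.46 in HIF-1α knockdown and 10.70 in wild type. In both cases the arrays of the groups did not overlap. All 10 measured hepatocyte markers gave signal, from 10.96 for SERPINA1 to 13.70 for APOB. Of markers of other cells, 5 of 9 fibroblast, 1 of 8 endothelial and 3 of 8 leukocyte genes lay above the floor described below. They were ACTA2 (9.26), COL1A1, PDGFRB, COL3A1 and COL1A2, the endothelial gene PECAM1 (8.04), and CD68 (10.02), CD14 and MARCO. The other genes of these lists, among them DCN, LUM, VWF, CDH5, PTPRC and CD3E, did not lie above it. Dim signals stood higher on HIF-2α knockdown replicate 4 (median over 340 olfactory receptor genes 6.72) and on replicates 1 and 2 of wild type (6.75 and 6.78) than on the other 9 arrays (6.58 to 6.64).

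The values carry no detection calls, so the olfactory receptor genes, whose transcripts liver cells are not known for, were used to describe the floor. The 95th percentile of their mean signals was 7.03, and 29 of the 48 P450 members had a mean above it (60.4%, against 70.6% of all genes). CYP2R1 lay just above at 7.06 and CYP4A22 just below at 7.01. Of the 29, 9 lay under the 99th percentile of 7.29. They were CYP11B1, CYP11B2, CYP1A2, CYP26B1, CYP2E1, CYP2R1, CYP2U1, CYP3A43 and CYP46A1. The signal of a probe set depends on its probes, so the values place a member relative to the floor and do not rank transcripts by abundance.

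**Figure D1:**
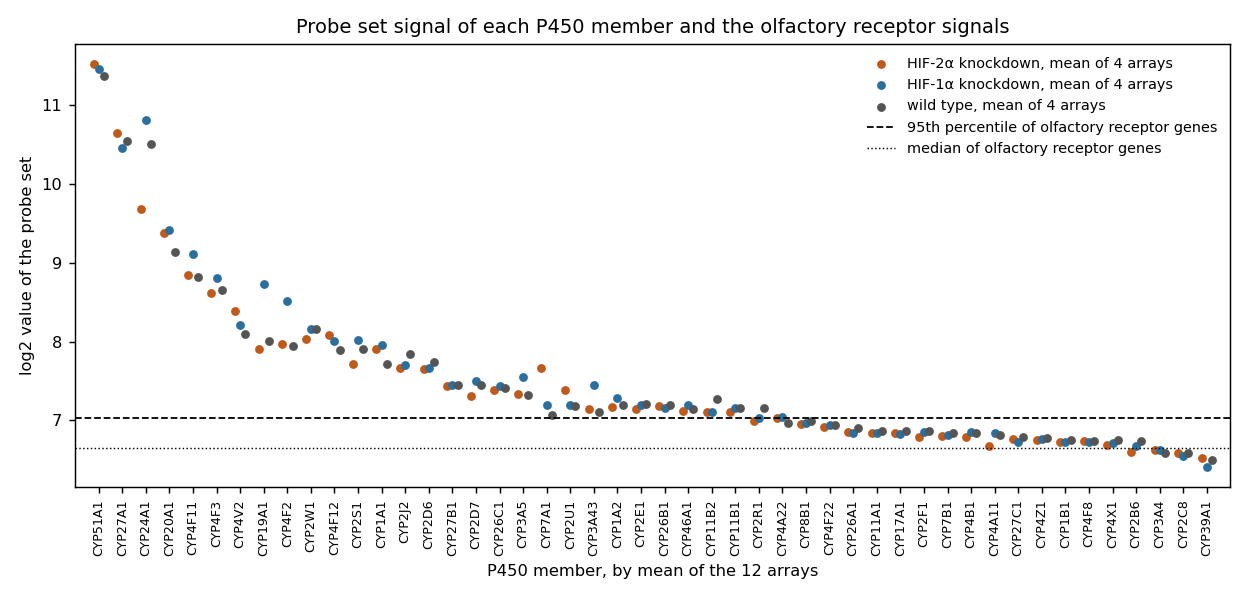
Mean log2 signal of each of the 48 P450 members in HIF-2α knockdown, HIF-1α knockdown and wild type spheroids (4 arrays each), ordered by the mean over 12 arrays; the dashed and dotted lines are the 95th percentile (7.03) and the median (6.65) of the olfactory receptor genes. CYP24A1, CYP19A1, CYP7A1 and CYP4F2 show the widest gaps between group means, and 19 members lie at or under the dashed line.

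The 19 members at or under the floor included several that define adult liver drug and bile acid metabolism. Among the xenobiotic enzymes they were CYP3A4, the main drug-oxidising P450 of adult liver, and CYP2B6, CYP2C8, CYP1B1 and CYP2F1. Among the sterol enzymes they were CYP8B1, the hydroxylase that directs synthesis to cholic acid, CYP7B1 and CYP39A1. The others were the steroid enzymes CYP11A1 and CYP17A1, the retinoid enzymes CYP26A1 and CYP27C1, the fatty acid hydroxylase genes CYP4A11, CYP4A22, CYP4B1, CYP4F8 and CYP4F22, and CYP4X1 and CYP4Z1. Their array values lay between 6.31 and 7.09, and none was called in any comparison. A change of such a gene below the floor cannot be seen with these values.

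Changes were called with limma across all 18404 genes at an adjusted p under 0.05, with 4 arrays per group throughout. In HIF-1α knockdown against wild type 3 members rose and none fell. They were CYP19A1, CYP4F2 and CYP3A43. They make up 6.25% of the members, against 0.962% of all genes called in either direction, 0.815% higher and 0.147% lower. In HIF-2α knockdown against wild type CYP24A1 fell and no member rose, which is 2.08% of the members against 0.788% of all genes called, 0.478% higher and 0.31% lower. Between the knockdowns 5 members were lower in HIF-2α knockdown and none was higher. These were CYP24A1, CYP19A1, CYP4F2, CYP2S1 and CYP3A43, 10.4% of the members against 2.77% of all genes called, 0.967% higher and 1.8% lower. The comparisons share arrays, so the same HIF-1α knockdown values stand behind the calls of CYP19A1, CYP4F2 and CYP3A43 in both comparisons that use them. Likewise the same HIF-2α knockdown values stand behind both calls of CYP24A1.

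Among the 29 members above the floor, 20 differences were positive and 9 negative in HIF-1α knockdown against wild type (median 0.08). In HIF-2α knockdown against wild type 12 were positive and 17 negative (median -0.03). Between the knockdowns 7 were positive and 22 negative (median -0.05). The 29 were picked by their mean over the 12 arrays. CYP2R1, which averaged 7.16 in wild type, 7.03 in HIF-1α knockdown and 6.99 in HIF-2α knockdown, is among them through wild type. The signs of all genes above the floor were not counted. Over the whole family 24 differences were positive and 24 negative in HIF-1α knockdown against wild type. They were 17 and 31 in HIF-2α knockdown against wild type, and 14 and 34 between the knockdowns. The medians of the whole family lay near those of all genes. The median difference of the 48 members was 0.00 in HIF-1α knockdown against wild type (0.00 over all genes), -0.03 in HIF-2α knockdown against wild type (-0.01 over all genes) and -0.02 between the knockdowns (-0.01 over all genes). An unadjusted p under 0.05 was reached by 7 members in HIF-1α knockdown against wild type (14.6%, against 13.2% of all genes), by 10 in HIF-2α knockdown against wild type (20.8%, against 12%) and by 12 between the knockdowns (25%, against 13.6%). The arrays of the groups did not overlap for 6 members in HIF-1α knockdown against wild type, all higher (12.5%, against 7.84% of all genes, 5.73% higher and 2.11% lower). The count was 5 in HIF-2α knockdown against wild type, 4 higher and 1 lower (10.4%, against 5.31% of all genes, 3.4% higher and 1.91% lower). It was 9 between the knockdowns, 1 higher and 8 lower in HIF-2α knockdown (18.8%, against 9.08% of all genes, 3.73% higher and 5.35% lower). Quantile normalization moved the split of all genes called in HIF-1α knockdown against wild type to 140 higher and 114 lower, against 150 and 27, and in HIF-2α knockdown against wild type to 141 higher and 263 lower, against 88 and 57. Under it CYP3A43 lost its call in HIF-1α knockdown against wild type (limma adjusted p = 0.0533) and between the knockdowns (adjusted p = 0.0595), and CYP4F11 was called between the knockdowns. The called members kept their directions.

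**Figure D2:**
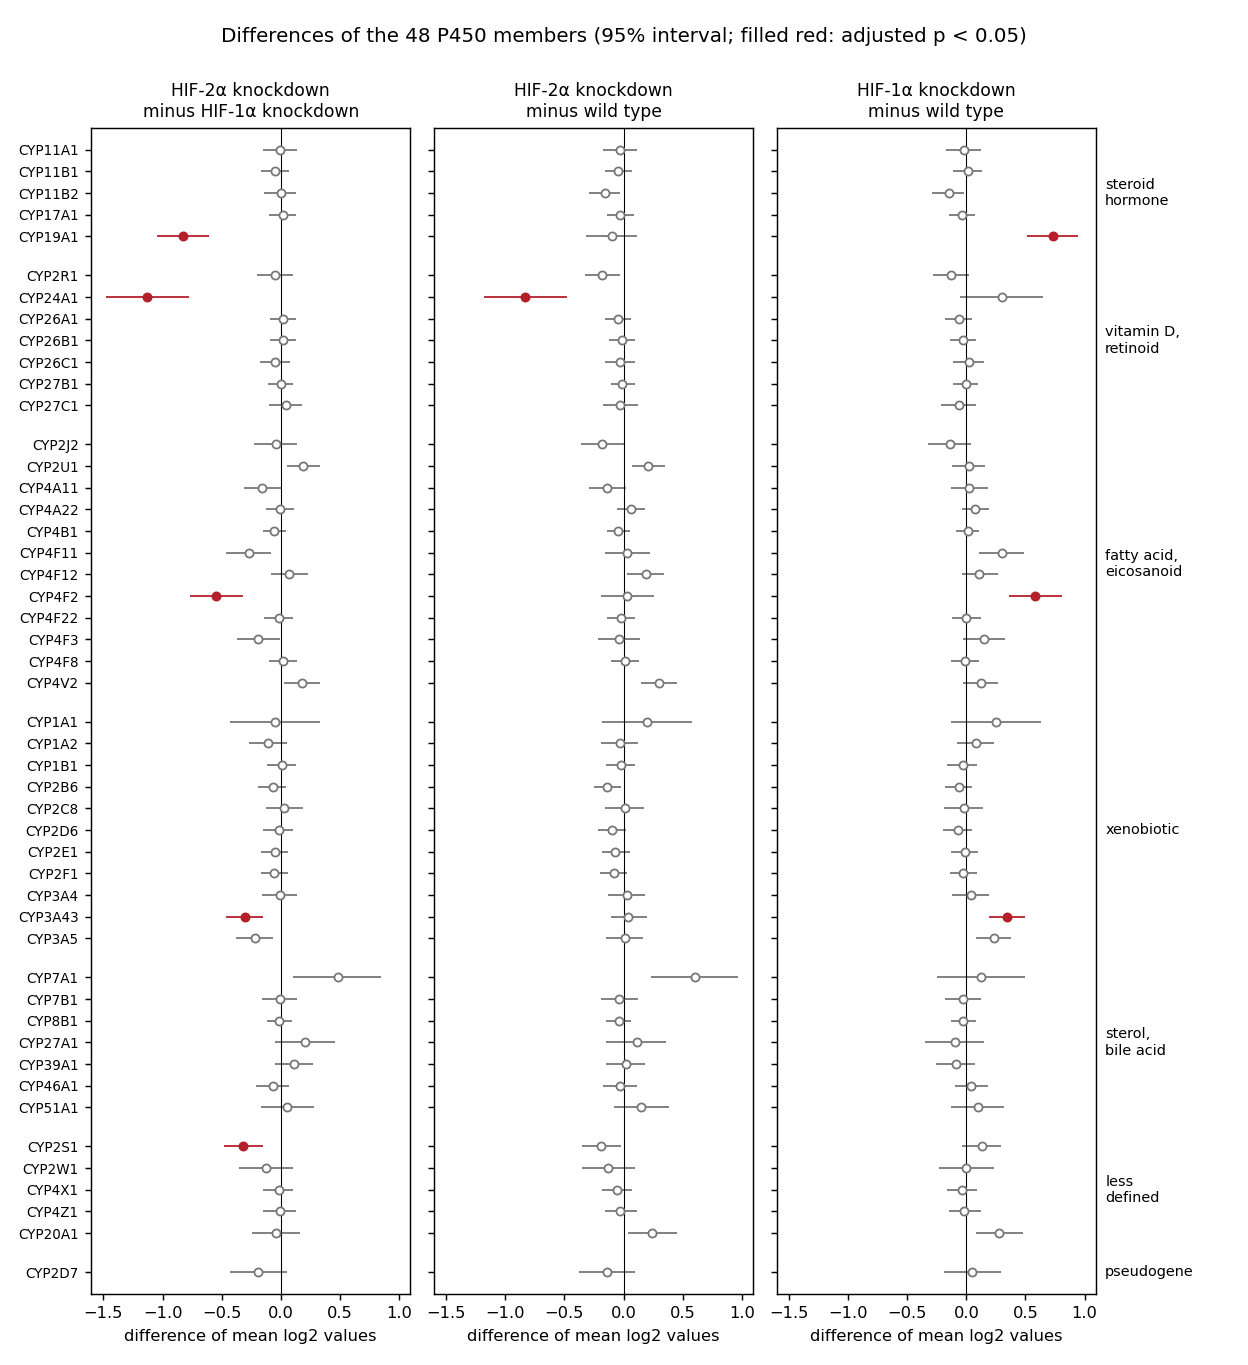
Difference of mean log2 values of the 48 P450 members in the 3 comparisons, grouped by role, with 95% intervals from limma (4 arrays per group); filled red points have an adjusted p under 0.05. Most members centre near 0, and the filled points are CYP19A1, CYP4F2 and CYP3A43 to the right in HIF-1α knockdown minus wild type, CYP24A1 to the left in HIF-2α knockdown minus wild type, and 5 members to the left between the knockdowns.

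CYP19A1 encodes aromatase, which converts androgens to oestrogens. Of the 5 steroid hormone P450 members measured, CYP19A1 alone was called in any comparison. Its log2 values were 7.95, 8.13, 7.83 and 7.70 in HIF-2α knockdown, 8.58, 8.98, 8.71 and 8.66 in HIF-1α knockdown, and 7.92, 7.96, 8.16 and 7.98 in wild type. All HIF-1α knockdown arrays lay above all others, while the HIF-2α knockdown and wild type arrays overlapped. CYP19A1 was 1.66-fold higher in HIF-1α knockdown than in wild type (log2 fold change 0.73, SE 0.10, limma adjusted p = 0.00413). The exact two-sided permutation test gave p = 0.0286 for CYP19A1 and for every other pair of groups that did not overlap, and no lower value is possible with 4 arrays each. It was 1.78-fold lower in HIF-2α knockdown than in HIF-1α knockdown (log2 fold change -0.83, SE 0.10, limma adjusted p = 0.000597). The difference between HIF-2α knockdown and wild type was -0.10 (95% interval -0.32 to 0.11). Both calls held in all 12 fits that left out 1 array. Leaving out all 3 arrays with high dim signals, 2 of them wild type, gave a difference of 0.66 from wild type that was no longer called (adjusted p = 0.107; 3.66e-05 to 0.107 over 21 alternatives).

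CYP19A1 is transcribed from several alternative first exons, and the RefSeq promoter table (GRCh38.p14) held 7 partly overlapping start windows for it. The array value does not tell them apart. Windows of 250 bases before each start were searched on both strands for ACGTG and GCGTG, the core letters bound by HIF, of which GCGTG is also the core bound by the aryl hydrocarbon receptor. A CACGTG stretch would hold ACGTG on both strands. The table held windows for 33 members, 46 in all. Of these windows 8 held ACGTG (17.4%, against 18.5% of 35116 windows in the table) and 10 held GCGTG (21.7%, against 32.2%). For the called members CYP19A1, CYP2S1, CYP3A43 and CYP4F2, 1 of 10 windows held either core (10%, against 32.6% of the member windows and 43.2% of all windows). As 7 of these 10 windows belong to CYP19A1, they are not independent, and the shares do not compare genes. By gene, CYP19A1 alone of the 4 had a window with a core, against 13 of the 33 members with windows. The table has no entry for CYP24A1. The window with a core is shown, with the upstream window of CYP4F2, because these are the members with the largest rises in HIF-1α knockdown. Letters are lower case except the core, which is in capitals, 5′ to 3′ on the strand of the gene.
CYP19A1, chr15:51243030-51243279, minus strand: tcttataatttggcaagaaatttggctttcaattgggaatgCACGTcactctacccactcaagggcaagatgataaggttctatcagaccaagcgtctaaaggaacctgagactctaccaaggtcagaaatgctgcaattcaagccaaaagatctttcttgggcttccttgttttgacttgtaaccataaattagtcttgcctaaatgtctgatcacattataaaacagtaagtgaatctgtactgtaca
CYP4F2, chr19:15898075-15898324, minus strand: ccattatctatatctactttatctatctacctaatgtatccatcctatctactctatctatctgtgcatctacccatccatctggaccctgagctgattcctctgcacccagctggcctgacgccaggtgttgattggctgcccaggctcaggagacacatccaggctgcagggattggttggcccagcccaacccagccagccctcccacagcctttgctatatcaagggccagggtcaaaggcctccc
The CYP19A1 window holds CACGT, the reverse complement of ACGTG, whose first base is at position -209 from the start. The CYP4F2 window holds neither core. A match is a stretch of letters, and no binding was measured.

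CYP24A1 encodes the mitochondrial hydroxylase that inactivates vitamin D hormone and is a classic target of the vitamin D receptor. Its log2 values were 9.90, 10.14, 9.16 and 9.51 in HIF-2α knockdown, 10.58, 10.96, 10.97 and 10.73 in HIF-1α knockdown, and 10.46, 10.46, 10.59 and 10.53 in wild type. Every HIF-2α knockdown array lay below every other array. CYP24A1 was 1.78-fold lower in HIF-2α knockdown than in wild type (log2 fold change -0.83, SE 0.16, limma adjusted p = 0.0324). It was 2.19-fold lower in HIF-2α knockdown than in HIF-1α knockdown (log2 fold change -1.13, SE 0.16, adjusted p = 0.00216). HIF-1α knockdown differed from wild type by 0.30 (95% interval -0.05 to 0.65), which was not called. The spread in HIF-2α knockdown was wide (SD 0.43, against 0.19 in HIF-1α knockdown and 0.06 in wild type).

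The call of CYP24A1 against wild type lay close to the threshold. It was lost without any 1 of the 4 wild type arrays, without HIF-2α knockdown replicate 1 or 4, and without HIF-1α knockdown replicate 2 (adjusted p from 0.0506 to 0.0956). It was also lost without the 3 arrays with high dim signals (-0.82, adjusted p = 0.258). Its difference stayed between -0.98 and -0.66 over 21 alternatives. Against HIF-1α knockdown the call held in all 12 such fits and in all 21 alternatives.

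Of the vitamin D and retinoid enzymes only CYP24A1 among the 7 measured was called. CYP27B1, which makes the active hormone, averaged 7.44 ± 0.05 in HIF-2α knockdown, 7.45 ± 0.06 in HIF-1α knockdown and 7.45 ± 0.04 in wild type (SD, n = 4 arrays each). Its differences from wild type had 95% intervals within -0.11 to 0.10 in both knockdowns. CYP2R1, the liver enzyme that starts vitamin D activation, averaged 6.99 in HIF-2α knockdown, 7.03 in HIF-1α knockdown and 7.16 in wild type and was not called. The vitamin D receptor gene VDR averaged 7.19 ± 0.11 in HIF-2α knockdown, 7.12 ± 0.03 in HIF-1α knockdown and 7.26 ± 0.07 in wild type (SD, n = 4 arrays each), near the floor and not called. CYP26B1 and CYP26C1, which degrade retinoic acid, differed from wild type by at most 0.03 in either direction.

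**Figure D3:**
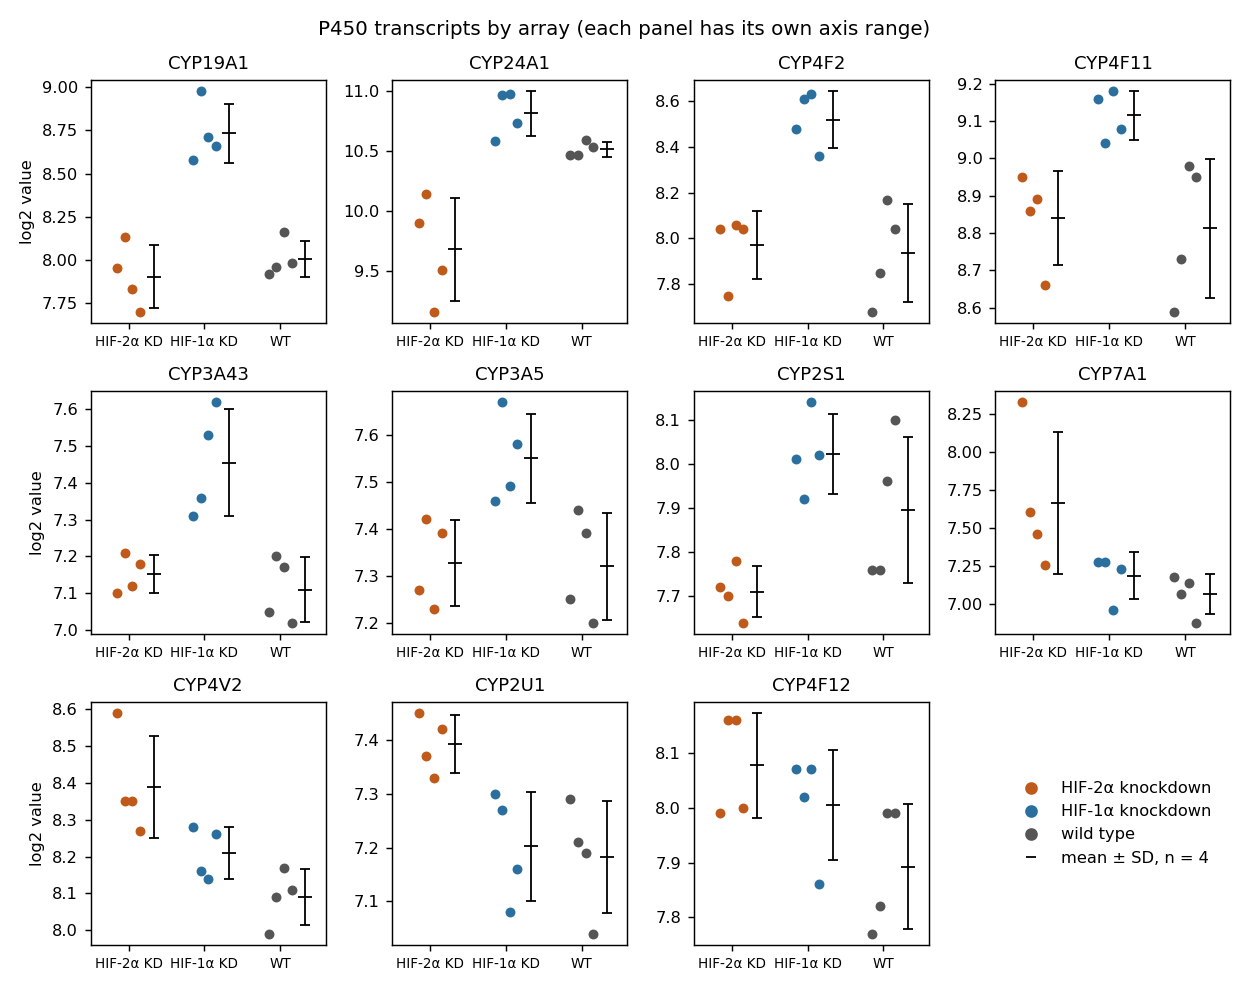
Log2 values of the 11 P450 members with the strongest evidence in any comparison on every array of HIF-2α knockdown, HIF-1α knockdown and wild type spheroids; points are arrays, horizontal marks and bars are the mean and SD of 4 arrays, and each panel has its own axis. CYP19A1, CYP4F2, CYP3A43, CYP4F11 and CYP3A5 lie highest in HIF-1α knockdown, CYP24A1 lies lowest in HIF-2α knockdown, and CYP7A1, CYP4V2 and CYP2U1 lie highest in HIF-2α knockdown.

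CYP4F2 is an omega-hydroxylase of fatty acids, leukotriene B4 and the side chains of vitamins E and K. Its log2 values were 8.04, 7.75, 8.06 and 8.04 in HIF-2α knockdown, 8.48, 8.61, 8.63 and 8.36 in HIF-1α knockdown, and 7.68, 7.85, 8.17 and 8.04 in wild type. The HIF-1α knockdown arrays stood above all others. CYP4F2 was 1.5-fold higher in HIF-1α knockdown than in wild type (log2 fold change 0.58, SE 0.10, limma adjusted p = 0.0195). Between the knockdowns it was lower in HIF-2α knockdown (log2 fold change -0.55, SE 0.10, adjusted p = 0.0132). The rise against wild type was lost without wild type replicate 1 or 2 or HIF-1α knockdown replicate 2 or 3 (adjusted p from 0.0620 to 0.0817). It was 0.41 without the 3 arrays with high dim signals (adjusted p = 0.204; 0.000953 to 0.204 over 21 alternatives). Between the knockdowns it was lost without HIF-1α knockdown replicate 3 alone (adjusted p = 0.0567).

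The other 5 CYP4F members, on the same chromosome as CYP4F2, did not pass in any comparison on the deposited values with equally weighted arrays. CYP4F11, the next coding gene to CYP4F2 and an omega-hydroxylase of fatty acids and vitamin K, had values of 8.95, 8.86, 8.89 and 8.66 in HIF-2α knockdown, 9.16, 9.04, 9.18 and 9.08 in HIF-1α knockdown, and 8.59, 8.73, 8.98 and 8.95 in wild type. The HIF-1α knockdown arrays did not overlap with either other group. The difference of HIF-1α knockdown from wild type was 0.30 (SE 0.09, limma adjusted p = 0.126), and 0.15 without the 3 arrays with high dim signals (adjusted p = 0.352). The difference of HIF-2α knockdown from HIF-1α knockdown was -0.27 (adjusted p = 0.141). CYP4F3, the leukotriene B4 hydroxylase, differed from wild type by 0.15 in HIF-1α knockdown (limma adjusted p = 0.513). In HIF-2α knockdown against HIF-1α knockdown CYP4F3 was -0.19 (adjusted p = 0.336), and the arrays of these groups did not overlap. CYP4F8 and CYP4F22, both under the floor, differed by -0.01 and 0.00 in HIF-1α knockdown against wild type. CYP4F12, the neighbour of CYP4F3, had values of 7.99, 8.16, 8.16 and 8.0 in HIF-2α knockdown, 8.07, 8.02, 8.07 and 7.86 in HIF-1α knockdown, and 7.77, 7.82, 7.99 and 7.99 in wild type. The knockdown groups overlapped, and the lowest HIF-2α knockdown array lay above the highest wild type array only beyond the decimals shown, with a difference of group means of 0.19 (SE 0.07, limma adjusted p = 0.293). Whether probes of these closely related genes pick up each other's transcripts was not tested.

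No other fatty acid enzyme was called, and their differences ran both ways. CYP4V2, a fatty acid hydroxylase known from an inherited retinal dystrophy, had values of 8.59, 8.35, 8.35 and 8.27 in HIF-2α knockdown, 8.28, 8.16, 8.14 and 8.26 in HIF-1α knockdown, and 7.99, 8.09, 8.17 and 8.11 in wild type. HIF-2α knockdown lay above wild type on every array and overlapped with HIF-1α knockdown. The difference from wild type was 0.30 (SE 0.07, limma adjusted p = 0.0721; 0.0524 to 0.235 over 21 alternatives). CYP2U1, a fatty acid hydroxylase, had values of 7.45, 7.37, 7.33 and 7.42 in HIF-2α knockdown, 7.30, 7.27, 7.08 and 7.16 in HIF-1α knockdown, and 7.29, 7.21, 7.19 and 7.04 in wild type. HIF-2α knockdown did not overlap with either other group, and its difference from wild type was 0.21 (SE 0.07, adjusted p = 0.177). CYP4A11, under the floor, had differences of -0.14 for HIF-2α knockdown (limma adjusted p = 0.503) and 0.02 for HIF-1α knockdown (adjusted p = 0.939), each against wild type. CYP2J2, an epoxygenase of arachidonic acid, averaged 7.66 ± 0.08 in HIF-2α knockdown, 7.70 ± 0.10 in HIF-1α knockdown and 7.84 ± 0.18 in wild type (SD, n = 4 arrays each) and was not called. Of the 12 fatty acid and eicosanoid members measured, 1 was called against wild type in HIF-1α knockdown, none in HIF-2α knockdown and 1 between the knockdowns, CYP4F2 in both cases.

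Of 11 xenobiotic members measured, CYP3A43 was the 1 called. It belongs to the CYP3A cluster of drug and steroid oxidising genes and has a less well defined role in the liver than its neighbours. Its log2 values were 7.10, 7.21, 7.12 and 7.18 in HIF-2α knockdown, 7.31, 7.36, 7.53 and 7.62 in HIF-1α knockdown, and 7.05, 7.20, 7.17 and 7.02 in wild type. The HIF-1α knockdown arrays did not overlap with the others, and the values of the other groups sat near the floor. CYP3A43 was 1.27-fold higher in HIF-1α knockdown than in wild type (log2 fold change 0.34, SE 0.07, limma adjusted p = 0.0418), and lower in HIF-2α knockdown than in HIF-1α knockdown (-0.30, SE 0.07, adjusted p = 0.0409). Each of these calls held in 4 of the 12 fits that left out 1 array. The rise against wild type was lost without wild type replicate 1, 2 or 4, HIF-1α knockdown replicate 2, 3 or 4, or HIF-2α knockdown replicate 3 or 4 (adjusted p from 0.0517 to 0.145), and without the 3 arrays with high dim signals (0.36, adjusted p = 0.204). Centring each array on its median also ended both calls of CYP3A43 (adjusted p = 0.128 against wild type and 0.116 between the knockdowns), as did a fit of only the 2 groups compared (adjusted p = 0.0522 and 0.06). The difference between the knockdowns was lost without wild type replicate 1, HIF-1α knockdown replicate 2, 3 or 4, or any 1 of the HIF-2α knockdown arrays (adjusted p from 0.0545 to 0.144).

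CYP3A5, another drug-oxidising gene of the cluster, had values of 7.27, 7.42, 7.23 and 7.39 in HIF-2α knockdown, 7.46, 7.67, 7.49 and 7.58 in HIF-1α knockdown, and 7.25, 7.44, 7.39 and 7.20 in wild type. HIF-1α knockdown lay above both other groups on every array, with a difference of 0.23 from wild type (SE 0.07, limma adjusted p = 0.143) and of -0.22 for HIF-2α knockdown against HIF-1α knockdown (adjusted p = 0.138). CYP3A7, the fetal liver enzyme, is no member because its probe set carries several symbols. That probe set averaged 7.12 in HIF-2α knockdown, 7.34 in HIF-1α knockdown and 7.13 in wild type, and was not called in a fit over all 32321 probe sets (HIF-1α knockdown against wild type 0.21, SE 0.07, adjusted p = 0.224). CYP3A4, the coding gene next to CYP3A43, lay under the floor, with means of 6.62 in HIF-2α knockdown, 6.63 in HIF-1α knockdown and 6.59 in wild type.

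CYP1A1, the polycyclic aromatic hydrocarbon hydroxylase induced through the aryl hydrocarbon receptor, varied widely within groups. Its values were 7.92, 8.40, 7.57 and 7.75 in HIF-2α knockdown, 8.26, 8.11, 7.68 and 7.81 in HIF-1α knockdown, and 7.91, 7.75, 7.35 and 7.84 in wild type. The 3 groups overlapped, and the 95% intervals of the differences from wild type were -0.18 to 0.58 in HIF-2α knockdown and -0.13 to 0.63 in HIF-1α knockdown. CYP1A2, CYP2D6 and CYP2E1, drug-metabolising enzymes of hepatocytes, differed from wild type by between -0.10 and 0.08 in the knockdowns and were not called. A further probe set shared by CYP2D6 and LOC101929829 averaged 7.62 in HIF-2α knockdown, 7.38 in HIF-1α knockdown and 7.80 in wild type. In the fit over all probe sets its difference was -0.18 for HIF-2α knockdown (limma adjusted p = 0.828) and -0.41 for HIF-1α knockdown (adjusted p = 0.342), each against wild type, without a call. The pseudogene CYP2D7 averaged 7.31 ± 0.17 in HIF-2α knockdown, 7.5 ± 0.10 in HIF-1α knockdown and 7.45 ± 0.24 in wild type (SD, n = 4 arrays each).

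None of the 7 sterol and bile acid members was called. CYP7A1, the rate-limiting enzyme of bile acid synthesis from cholesterol, had values of 8.33, 7.61, 7.46 and 7.26 in HIF-2α knockdown, 7.28, 7.28, 6.96 and 7.23 in HIF-1α knockdown, and 7.18, 7.07, 7.14 and 6.88 in wild type. HIF-2α knockdown lay above wild type on every array, and replicate 1 stood well above the other arrays of its group. The means of the other groups, 7.19 in HIF-1α knockdown and 7.07 in wild type, sat near the floor. The difference from wild type was 0.60 (SE 0.17, limma adjusted p = 0.143; 0.0652 to 0.315 over 21 alternatives), and 0.38 without that replicate. CYP27A1, the mitochondrial sterol hydroxylase of the alternative bile acid route, averaged 10.65 ± 0.25 in HIF-2α knockdown, 10.45 ± 0.06 in HIF-1α knockdown and 10.55 ± 0.20 in wild type (SD, n = 4 arrays each), with overlapping arrays. CYP51A1, the lanosterol demethylase of cholesterol synthesis, averaged 11.52 ± 0.07 in HIF-2α knockdown, 11.46 ± 0.10 in HIF-1α knockdown and 11.37 ± 0.27 in wild type (SD, n = 4 arrays each). Its second, dimmer probe set averaged 7.71 in HIF-2α knockdown, 8.05 in HIF-1α knockdown and 8.01 in wild type. The probe sets thus differed in the sign of HIF-2α knockdown against wild type, 0.15 for the brighter and -0.30 for the dimmer, and neither passed.

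CYP2S1, an epithelial P450 inducible through the aryl hydrocarbon receptor, had values of 7.72, 7.70, 7.78 and 7.64 in HIF-2α knockdown, 8.01, 7.92, 8.14 and 8.02 in HIF-1α knockdown, and 7.76, 7.76, 7.96 and 8.10 in wild type. The knockdown arrays did not overlap, and wild type overlapped with both. CYP2S1 was 1.24-fold lower in HIF-2α knockdown than in HIF-1α knockdown (log2 fold change -0.32, SE 0.08, limma adjusted p = 0.0464). This call was lost without any 1 of the 8 knockdown arrays (adjusted p from 0.0603 to 0.166). Against wild type its difference was -0.19 in HIF-2α knockdown (adjusted p = 0.342) and 0.13 in HIF-1α knockdown (adjusted p = 0.552), neither called.

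CYP20A1, an orphan P450, averaged 9.38 ± 0.18 in HIF-2α knockdown, 9.41 ± 0.06 in HIF-1α knockdown and 9.13 ± 0.16 in wild type (SD, n = 4 arrays each). Its difference from wild type was 0.24 in HIF-2α knockdown (limma adjusted p = 0.295) and 0.28 in HIF-1α knockdown (adjusted p = 0.175), neither called. The HIF-1α knockdown arrays (9.35 to 9.49) lay above all wild type arrays (8.94 to 9.34), and those of HIF-2α knockdown overlapped with both groups. CYP2W1, known from tumours, averaged 8.03 in HIF-2α knockdown, 8.16 in HIF-1α knockdown and 8.16 in wild type, also without a call. The adrenal steroid enzymes CYP11B1 and CYP11B2 had means between 7.11 and 7.27, near the floor. The brighter of the 2 probe sets shared by CYP21A2 and its pseudogene averaged 7.99 in HIF-2α knockdown, 8.09 in HIF-1α knockdown and 8.41 in wild type, without a call over all probe sets (limma adjusted p = 0.211 for HIF-2α knockdown and 0.33 for HIF-1α knockdown, each against wild type).

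Genes on which P450 activity depends were set beside the members. Measured were 10 of 13 listed redox partner genes, 13 of 14 of haem synthesis and breakdown and 24 of 31 regulators of P450 genes. Also measured were 6 of 8 listed targets of the aryl hydrocarbon receptor outside the family and 14 of 18 genes of sterol synthesis. None of the measured genes was called in any comparison, and the other listed genes were not tested. At an unadjusted p under 0.05, HIF-1α knockdown against wild type had 0 redox partners, 2 haem genes (15.4%) and 3 regulators (12.5%). It also had 1 receptor target (16.7%) and 2 sterol genes (14.3%), against 13.2% of all genes. In HIF-2α knockdown against wild type they were 3 redox partners (30%), 0 haem genes and 7 regulators (29.2%). There were 0 receptor targets and 2 sterol genes (14.3%), against 12% of all genes. Between the knockdowns they were 3 redox partners (30%), 2 haem genes (15.4%) and 6 regulators (25%). There were 0 receptor targets and 1 sterol gene (7.14%), against 13.6% of all genes. POR, the reductase that feeds electrons to microsomal P450s, averaged 10.11 ± 0.08 in HIF-2α knockdown, 10.26 ± 0.14 in HIF-1α knockdown and 10.14 ± 0.19 in wild type (SD, n = 4 arrays each). No list gene passed, so the following were chosen after their values were seen. CYB5R3, another redox partner, was -0.38 in HIF-2α knockdown against wild type (SE 0.10, limma adjusted p = 0.108). Against HIF-1α knockdown it was -0.29 (SE 0.10, adjusted p = 0.175), and the arrays did not overlap in either comparison. Of the 10 redox partners 5 differences were positive and 5 negative in each of these comparisons. UROD, a decarboxylase of haem synthesis, was -0.36 in HIF-1α knockdown against wild type (SE 0.08, limma adjusted p = 0.0554), and IDI1, an isomerase of sterol synthesis, 0.42 (SE 0.10, adjusted p = 0.0728). ALAS1, the rate-limiting enzyme of liver haem synthesis, was -0.35 in HIF-2α knockdown against HIF-1α knockdown (SE 0.10, adjusted p = 0.0931), with overlapping arrays. UROD went the other way in that comparison (0.29, SE 0.08, adjusted p = 0.0861), also with overlapping arrays.

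Hepatocyte and ribosomal protein genes lay lower in HIF-1α knockdown, the group in which CYP19A1, CYP4F2 and CYP3A43 rose. All 10 hepatocyte markers were negative against wild type, none called, with a median of -0.46, and their mean per array ran from 12.34 to 12.62 in HIF-1α knockdown and from 12.71 to 13.17 in wild type. Of 34 ribosomal protein genes 33 were negative against wild type and 1 of them, RPL11, fell, with a median of -0.42. Their means ran from 11.57 to 11.87 in HIF-1α knockdown and from 11.84 to 12.35 in wild type. In HIF-2α knockdown the hepatocyte means ran from 12.41 to 13.07 and the ribosomal means from 11.68 to 12.22, across both other groups. The fibroblast list had means of 7.16 to 7.28 in HIF-2α knockdown, 7.26 to 7.33 in HIF-1α knockdown and 7.21 to 7.30 in wild type. The endothelial list had means of 6.91 to 6.96 in HIF-2α knockdown, 7.0 to 7.01 in HIF-1α knockdown and 6.92 to 7.03 in wild type, and the leukocyte list 7.21 to 7.31 in HIF-2α knockdown, 7.30 to 7.40 in HIF-1α knockdown and 7.26 to 7.39 in wild type. PDGFRB, a receptor of stellate cells and fibroblasts, averaged 7.19 in HIF-2α knockdown, 7.54 in HIF-1α knockdown and 7.6 in wild type. It was lower in HIF-2α knockdown, in which CYP24A1 fell, than in wild type (-0.40, limma adjusted p = 0.0109) and than in HIF-1α knockdown (-0.35, adjusted p = 0.0105). CD14, a monocyte receptor also made by hepatocytes, was lower in HIF-2α knockdown (7.14) than in HIF-1α knockdown (7.53; -0.39, adjusted p = 0.00899). RPL11 was higher in HIF-2α knockdown than in HIF-1α knockdown (0.76, adjusted p = 0.0206). Their part in the P450 differences was not tested. The labels name HepG2 as the only cell line, so the marker lists are not read as shares of other cell types. RNA of many cells was pooled on each array, so a change in some cells and one in all cells cannot be told apart.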

How the data were processed

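The authors deposited 1 matrix covering 32321 probe sets and 12 arrays, with values (5.93 to 15.05) taken here as log2 from their range. Neither the logarithm's base nor the background correction and normalization behind the values is given in the sources. Symbols came from the platform's annotation and were updated by Entrez identifier through a RefSeq table (GRCh38.p14), which changed no member's symbol. The brightest probe set stood for each of 18404 genes. One mean per group was fitted over all 12 arrays with limma 3.58.1 (R 4.3.3) and eBayes, with Benjamini-Hochberg adjustment over all genes and a threshold of 0.05. SE is the moderated standard error. The p-values reflect the spread between arrays, which may be technical, and precision rests on the number of arrays. The members, lists and tests were chosen with earlier results of these data known. Values on every array are given for members called in any comparison and the 5 with the smallest p in each, and CYP1A1 was added after its values were seen. Other members are described by group means or counts. The alternatives tried were other scalings, array sets, probe set choices, variance models, array weights and a replicate block.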

Additional observations from a re-analysis of the deposited data

Results flagged for a closer look

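Among 33 sets of 4 arrays, those of each group for the members called in any comparison or among the 5 with the smallest p (11 members, CYP4F12 included and CYP1A1 not), 2 held an array far from the other 3 by Dixon's criterion, and chance gives about 1 in 20. CYP4F2 in HIF-2α knockdown replicate 2 was 7.75, against 8.04 to 8.06 on the other arrays of that group. CYP7A1 in HIF-1α knockdown replicate 3 was 6.96, against 7.23 to 7.28. The gap was 0.93 of the group's range for CYP4F2 and 0.834 for CYP7A1.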

How the results depend on the processing

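In HIF-1α knockdown against wild type the number of members called was 3. It was 0 without the 3 arrays with high dim signals, 5 with array weights (CYP4F11 and CYP3A5 added), and 1 to 3 when single arrays were left out. In HIF-2α knockdown against wild type it was 1, and 0 with arrays centred on their median, without the arrays with high dim signals, with only the 2 groups compared, and over all probe sets of the table, a setting added after the data were seen. It was 0 to 1 without single arrays. Between the knockdowns it was 5, and 3 with centred arrays, without the arrays with high dim signals and over all probe sets, where CYP19A1, CYP24A1 and CYP4F2 remained. It was 2 to 5 without single arrays. The cause of these changes in count was not tested. Over 15 member differences and 315 alternative values none changed sign, 51 lost and 2 gained a call. Only the 3, 1 and 5 differences called as reported could lose a call, so the 51 do not stand against all 315. Calls over all genes ran from 22 to 605 for HIF-1α knockdown against wild type (177 as reported), 37 to 404 for HIF-2α knockdown against wild type (145) and 211 to 980 between the knockdowns (509). The 99th olfactory receptor percentile left 20 members above the floor, against 29. Same-numbered arrays deviated together in 5 of 12 pairs (correlation above 0.1; -0.17 to 0.64), so the numbers were not taken as pairs. With the replicate block the members called were 3, 1 and 5, with CYP19A1 at 0.73 and CYP24A1 at -0.83 against wild type, and it changed no call of a member.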
